A study of Mus musculus with 2 samples.

Results

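The secreted enzymes with which osteoclasts break down bone were read here from 3 mouse genes: Acp5, Ctsk and Mmp9. They were chosen by name, as every probe set (a group of short array probes for 1 transcript) whose only gene symbol in the platform annotation is 1 of the 3. This gave 4 probe sets, 1431609_a_at for Acp5, 1450652_at for Ctsk and 1416298_at and 1448291_at for Mmp9, out of 34945 probe sets with a single symbol, and 3 genes out of 18193. No probe set shared between several symbols included a member. The study hybridised 2 Affymetrix arrays of cultured mouse cells, 1 of macrophages and 1 of osteoclasts. Marrow cells of mice aged 8 weeks, labelled C57/Black6, first spent 3 days in M-CSF, the growth factor of the macrophage lineage, and the attached cells served as progenitors of both types. The macrophage group then had 6 days of M-CSF alone, and the osteoclast group had 6 days of M-CSF with RANKL, the cytokine that starts osteoclast formation. M-CSF was thus common to both groups, and the labels give neither the sex nor the number of the animals.

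Bone is resorbed outside the cell, in a sealed space between the osteoclast and the mineral, which the cell acidifies with a proton pump and into which it releases enzymes through its ruffled border. Ctsk encodes cathepsin K, a cysteine protease that cuts the triple helix of type I collagen at acid pH. Acp5 encodes tartrate-resistant acid phosphatase, the enzyme stained for in the usual assay of osteoclasts. Mmp9 encodes gelatinase B, a zinc metalloproteinase that is released as an inactive precursor and cuts denatured collagen and type IV collagen. NFATc1, the transcription factor of osteoclast differentiation, is known to act on these genes with AP-1, PU.1 and MITF.

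The promoter table from RefSeq, build GRCm38.p6, matched 2 of the 3 members, Ctsk with 1 start and Acp5 with 3. The pair printed here shows the 250 bases before the Ctsk start (chr3:95498960-95499209, plus strand) and before the Acp5 start that lies farthest along the gene (chr9:22130599-22130848, minus strand). They are shown because both genes had far higher signal in osteoclasts and because this Acp5 window held more of the motifs searched than the windows of the other two Acp5 starts. Capitals mark motif matches, and the sequences run 5′ to 3′ on the gene's own strand.
Ctsk: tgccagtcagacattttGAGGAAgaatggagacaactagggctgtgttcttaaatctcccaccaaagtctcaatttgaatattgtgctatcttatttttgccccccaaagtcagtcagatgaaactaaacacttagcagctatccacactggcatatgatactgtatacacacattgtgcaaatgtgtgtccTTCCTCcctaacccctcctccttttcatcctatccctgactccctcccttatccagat
Acp5: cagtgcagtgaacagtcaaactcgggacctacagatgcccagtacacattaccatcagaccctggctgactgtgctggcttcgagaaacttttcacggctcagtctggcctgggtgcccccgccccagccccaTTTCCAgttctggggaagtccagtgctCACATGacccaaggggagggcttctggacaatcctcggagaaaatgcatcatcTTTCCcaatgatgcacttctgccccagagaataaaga

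The motifs were the NFAT core GGAAA, its extended form TGGAAA (which contains the core), AP-1 TGANTCA, the E-boxes CATGTG and CACGTG of MITF and its relatives, the PU.1 core GAGGAA, a consensus of NF-kB and the TATA box TATAAA, each on both strands. They were searched from 250 bases before to 50 bases after each start. In the Acp5 window the reverse of the extended NFAT core began 117 bases before the start, the reverse of CATGTG 90 bases before it and the reverse of the NFAT core 37 bases before it. The other two Acp5 windows each held 1 match, to the NFAT core. In the Ctsk window the PU.1 core began 233 bases before the start on the gene's strand and 58 bases before it on the reverse strand, and a reverse extended NFAT core began at the start itself, past the bases printed. Such matches are common: of 32851 promoter windows of the same length, 61.3% held the NFAT core, 21.4% its extended form, 14.2% CATGTG and 28.3% the PU.1 core. AP-1 (7.81% of windows), CACGTG (7.15%), NF-kB (4.79%) and the TATA box (13.6%) had no match in these 4 windows. A match is a run of letters and not a measured binding site, and the arrays do not tell which of the Acp5 starts was in use.

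All values are the deposited linear intensities, 1 per probe set and array, in arbitrary units. With 1 array per group there was no replicate and no test was possible, so sizes are set against the only error that the data hold, the spread between probe sets of 1 gene. Over 14641 probe sets of 5435 genes this SD came to 0.49 in log2 units, and it holds no variation among cultures or animals. Across 23708 probe sets the median log2 ratio of osteoclast to macrophage signal was -0.43, a lower overall brightness of the osteoclast array, and this shift is taken off each difference unless the text says as deposited. A floor, the 40th percentile of each array (17.0 in macrophages, 14.4 in osteoclasts), marked what was counted as measured, and lower values were raised to it. The 95th percentile of 80 probe sets of olfactory and vomeronasal receptors, genes that these cells are not known to use, was 28.2 and 25.7 and served as a stricter background. Xist, an RNA of female cells, read 1872 in macrophages and 22.1 in osteoclasts, while the Y-linked Eif2s3y read 0.571 and 320.9. One array thus carried a female and the other a male signal, so for every value given here treatment and animal cannot be told apart. Controls of RNA integrity gave 3′ over 5′ ratios of 0.748 and 0.862 for Gapdh and of 1.23 and 1.21 for beta-actin.

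Transcripts of all 3 enzymes were among the brightest on the osteoclast array and far less bright on the macrophage array. There Acp5 and Ctsk lay at percentiles 69.3 and 72.6 of the probe sets, and the Mmp9 probe sets at 52.3 and 43.9. Acp5 had an intensity of 104 in macrophages and 8167 in osteoclasts. Ctsk had an intensity of 134 in macrophages and 9202 in osteoclasts. For Mmp9 the brighter probe set gave 30.4 in macrophages and 8767 in osteoclasts, and the other gave 20.3 and 7828. Each of the 4 probe sets read far higher on the osteoclast array than on the macrophage array. In bulk RNA, fewer cells that make a transcript and less of it in each cell cannot be told apart.

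**Figure D1:**
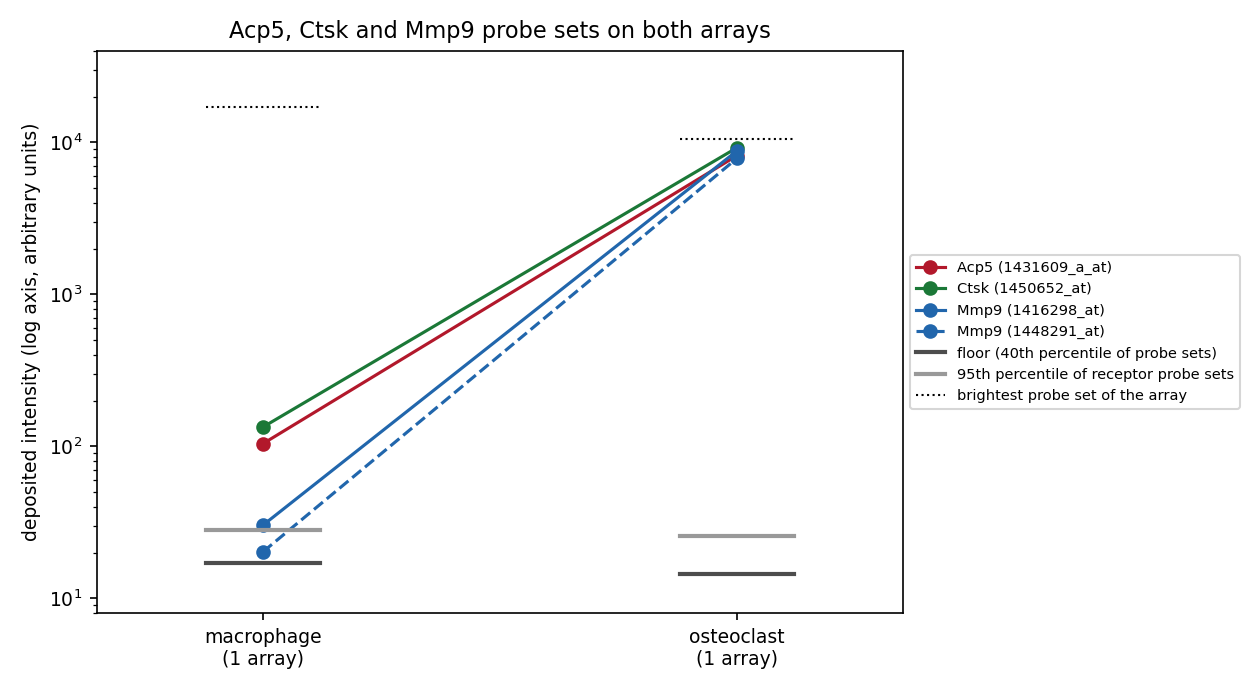
Deposited intensity (log axis, arbitrary units) of the 4 probe sets of Acp5, Ctsk and Mmp9 on the macrophage array and the osteoclast array, each line joining 1 probe set; grey bars mark the floor and the 95th percentile of receptor probe sets, and dotted bars the brightest probe set of each array. The lines start between 20.3 and 134 and end between 7828 and 9202, close to the brightest osteoclast value of 10519.

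Relative to the shift, Acp5 was 106-fold higher in osteoclasts (6.72 on the log2 scale) and 78.3-fold higher as deposited (6.29). Ctsk was 92.7-fold higher (6.53) and 68.6-fold as deposited (6.10). Mmp9 was 390-fold higher by its brighter probe set (8.61) and 289-fold as deposited (8.17). These differences were 13.6, 13.2 and 17.4 times the SD between probe sets of a gene. All 3 genes passed 2-fold and 4-fold, against a background over 13647 measured genes of 7.11% at least 2-fold higher (970 genes) and 1.34% at least 4-fold higher (183 genes). As deposited, 409 of the 13647 genes were 2-fold higher and 108 (0.791%) were 4-fold higher. Genes at least 2-fold lower numbered 954, or 6.99%, relative to the shift, and 2390, or 17.5%, as deposited, so the higher ones made up 50.4% and 14.6% of the 2-fold genes on the 2 scales.

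The macrophage signals of the 3 genes did not stand alike against background. None of the 80 receptor probe sets was brighter than Acp5 or Ctsk on the macrophage array, where these genes were 3.70 and 4.76 times the receptors' 95th percentile. Mmp9 was 1.08 times that level by its brighter probe set, with 2 of the 80 receptor probe sets above it. Its other probe set lay between the floor and that level, with 9 receptor probe sets above it. With the macrophage signal raised to the receptor level, the other probe set was at least 278-fold higher in osteoclasts, as deposited. Low macrophage signals of Acp5 and Ctsk were thus measured above background, while that of Mmp9 could not be separated from it, which makes the fold of Mmp9 close to a lower bound.

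Both Mmp9 probe sets gave differences in close range, 8.61 and 9.03. Their gap of 0.42 was below the SD of 0.49 between probe sets. It came mostly from the macrophage array, where they were 0.58 apart on the log2 scale, against 0.16 in osteoclasts. Acp5 and Ctsk had 1 probe set each, so their values had no second reading. The suffix of the Acp5 probe set, _a_at, is Affymetrix's mark for probes that read several transcript forms of 1 gene, so the value covers forms from more than 1 start where these are made.

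The order of the differences was Mmp9, Acp5, Ctsk. Mmp9 exceeded Acp5 by 1.88 on the log2 scale, or by 2.09 with the mean of both Mmp9 probe sets and 1.48 with a pseudocount of 16. As the Mmp9 signal in macrophages is close to background and the osteoclast signals are close to the top of the range, the size of this gap is not exact. Acp5 exceeded Ctsk by 0.19, or 0.386 of that SD, so the latter pair did not differ beyond the spread. On the osteoclast array 14 probe sets were brighter than that of Ctsk, 28 than the brighter Mmp9 probe set, 45 than that of Acp5 and 64 than the other Mmp9 probe set, out of 45037. The 4 signals lay at 74.4% to 87.5% of the brightest value of that array. Whether probes so near the top of the range still respond in proportion to the RNA was not tested. These positions describe where the readings fell in the array's range and do not rank the amounts of the 3 transcripts, since probes differ in how strongly they bind.

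**Figure D2:**
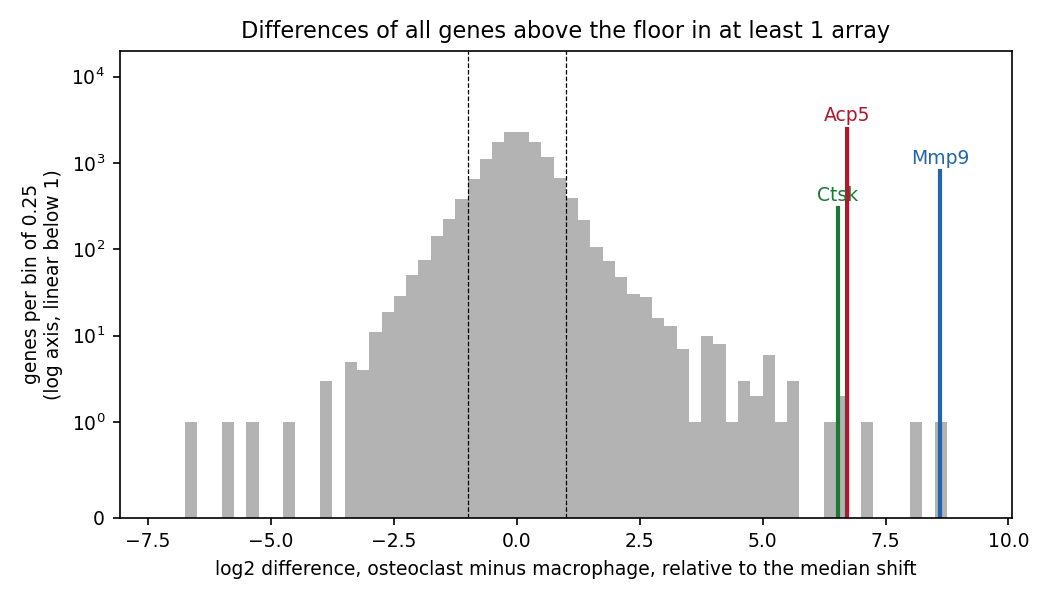
Number of genes (log axis, linear below 1) per bin of log2 difference, osteoclast minus macrophage, relative to the median shift, for 13647 genes; coloured lines mark the 3 enzymes and dashed lines 2-fold. Ctsk and Acp5, at 6.53 and 6.72, and Mmp9, at 8.61, lie in the thinly filled right tail.

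Among 13647 measured genes, Mmp9 had rank 1, Acp5 rank 4 and Ctsk rank 5 by the difference towards osteoclasts. With 2 arrays the only pattern a gene can have is this difference, and the 3 nearest genes were found for each member. For Acp5 they were Ctsk (a gap of 0.19), Akr1c18, a hydroxysteroid dehydrogenase (0.35), and Car2, carbonic anhydrase 2, which makes protons for resorption (0.38). For Ctsk they were Akr1c18 (0.16), Acp5 (0.19) and Car2 (0.57). For Mmp9 they were the metallothionein gene Mt3 (0.55), Car2 (1.50) and Acp5 (1.88). Akr1c18 and Car2 had macrophage signals of 21.5 and 23.7, under the receptor level, and Mt3 was below the floor there with 2.07 against 3351 in osteoclasts. Their differences are therefore near or at bounds, and their order relative to the members is not settled.

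The families of the enzymes did not share the pattern in size. Their counts past 2-fold stand against all-gene shares of 7.11% higher and 6.99% lower relative to the shift. As deposited, 17.5% of all measured genes were lower. Among 13 cathepsins other than cathepsin K, all measured, the median difference was -0.32, against 0.00 over all genes measured. At least 2-fold higher was 1, Ctsg, cathepsin G of granulocyte granules, whose signals of 14.1 and 35.7 were dim (1.50 with macrophages at the floor, and at least 1.27-fold higher with them at the receptor level). At least 2-fold lower was 1, Ctsh, an aminopeptidase, with 2037 against 485 (-1.64, its other probe set -2.00), and as deposited 6 were lower. Lysosomal cathepsins near in kind to Ctsk were not higher beyond 2-fold: Ctss read 8930 and 5297 (-0.32), Ctsl 10993 and 6594 (-0.30, its other probe set -2.64) and Ctsb 14588 and 6857 (-0.66, probe sets -1.49 to -0.47). Ctsz, a carboxypeptidase, read 7210 and 7601 (0.51). None of the 13 came near the 6.53 of Ctsk.

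Of 22 other matrix metalloproteinases, 17 had a probe set of their own and 11 were measured, with a median of -0.071. The 1 that was at least 2-fold higher was Mmp14, a membrane-bound collagenase that also activates other metalloproteinases, with 710 in macrophages and 1843 in osteoclasts (1.81). Its 3 probe sets ranged from 1.81 to 2.67. The 1 at least 2-fold lower was Mmp13, a collagenase, with 453 against 161 (-1.06), and as deposited 3 were lower. Mmp2, the gelatinase most like Mmp9 in its substrates, read 306 and 117 (-0.96). Mmp12, the macrophage elastase, read 2615 and 1282 (-0.60). Mmp8, which neutrophils store in granules as they do Mmp9, read 433 and 276 (-0.22). Mmp14 was the next of the family after Mmp9, far below it. Mmp3, Mmp7, Mmp10, Mmp1a, Mmp1b and Mmp20 were below the floor in both arrays.

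Of 10 names of other acid phosphatases, 6 had a probe set and all of these were measured, with a median of 0.020. Acpp, the prostatic acid phosphatase, was the 1 at least 2-fold higher, at 34.4 and 56.0 (1.14), with its other probe set at 0.77. As deposited none was 2-fold higher and 1, Acp2, was 2-fold lower (-1.01). Acp2, the lysosomal acid phosphatase, read 777 and 385 (-0.58), and Acp1 read 1187 and 1080 (0.30, probe sets -0.34 to 0.62). None of them came near the 6.72 of Acp5. With 1 array a side, none of these differences between a member and its family could be tested.

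**Figure D3:**
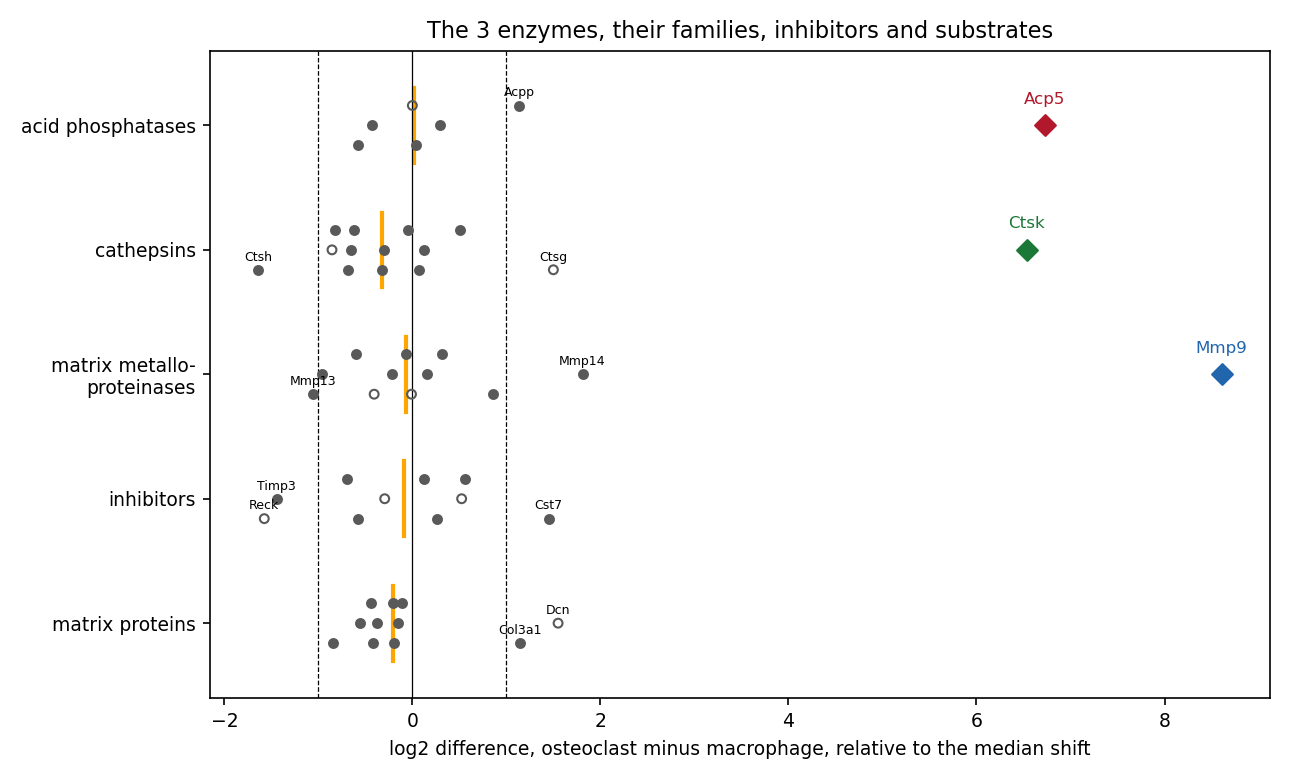
Log2 difference, osteoclast minus macrophage, relative to the median shift, for each measured gene of the enzymes' families, inhibitors and matrix substrates; diamonds are the 3 enzymes, open circles genes below the floor in 1 array, orange bars the medians of the circles and dashed lines 2-fold. The diamonds lie between 6.53 and 8.61, while the other genes lie between -1.64 and 1.81.

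Inhibitors of these proteases were for the most part little apart. Of 19 genes, 15 had a probe set and 10 were measured, with a median of -0.087. Of the 10, 1 was at least 2-fold higher on both scales and 2 were lower (4 as deposited). Among all measured genes 7.11% were higher and 6.99% lower relative to the shift, and 17.5% were lower as deposited. Timp3, a metalloproteinase inhibitor bound to matrix, read 531 and 145 (-1.44, probe sets -2.29 to -1.21). Reck, a membrane-anchored inhibitor, was below the floor in osteoclasts, with 57.9 and 10.1 (at least 1.67-fold lower). Timp1, which binds Mmp9, read 2242 and 1110 (-0.58), and Timp2 read 1695 and 1851 (0.56 by its brightest probe set, the others down to -0.85). Cystatins that block cysteine cathepsins, Cst3 (6632 and 5877, 0.26) and Cstb (7657 and 6169, 0.12, its other probe set 0.84), differed by under 2-fold. Cst7, cystatin F, was the 1 higher gene at 17.3 and 35.1, under 2-fold against the receptor level (at least 1.24-fold). The inhibitors thus lay between -1.57 and 1.45, far from the 3 enzymes.

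Several genes of the matrix that the enzymes cut were bright in both arrays, while Ibsp and Lum were below the floor in both. Of 16 such genes 13 had a probe set and 11 were measured, with a median of -0.21. Col1a1 and Col1a2, the chains of type I collagen cut by cathepsin K, read 2078 and 1381 (-0.16, its other probe set 0.77) and 5744 and 2895 (-0.56, others up to 0.090). At least 2-fold higher were 2 (1 as deposited), Col3a1 with 767 and 1255 (1.14) and Dcn with 15.3 and 37.0 (at least 1.31-fold). None was 2-fold lower relative to the shift, and 1 was as deposited. Among all measured genes 7.11% were higher and 6.99% lower relative to the shift, and 17.5% were lower as deposited.

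Receptors, adaptors and transcription factors linked to osteoclasts were read next. Of 14 receptors and adaptors, 13 were measured, with a median of -0.29. Of these, 3 were 2-fold higher or more on both scales and 1 lower (5 as deposited). The all-gene shares were 7.11% higher and 6.99% lower relative to the shift. As deposited they were 409 of 13647 genes higher and 17.5% lower. Oscar, a costimulatory receptor of osteoclasts, read 25.0 and 628 (5.08) and Calcr, the calcitonin receptor, 18.3 and 241 (4.16), at least 22.3-fold and 8.56-fold higher with macrophages at the receptor level. Il1r1, the interleukin 1 receptor, read 9.70 and 59.2 (at least 2.10-fold). Tnfrsf11a, which encodes the receptor of RANKL, was not among the higher genes. It read 542 and 223 (-0.85, or -1.28 as deposited), with its other probe set at -0.32. Trem2, a receptor that pairs with Tyrobp, was lower by its brighter probe set, 4201 and 685 (-2.18), but its other probe set gave 0.18. None of these differences reached that of Ctsk.

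Transcription factors known from osteoclast enzyme genes had a median of 0.49 over 28 measured of 29 (0.057 as deposited), of which 9 were higher by 2-fold or more (7 as deposited) and 2 lower (3 as deposited). Over all measured genes 7.11% were higher and 6.99% lower relative to the shift. Ppargc1b, a coactivator, read 49.0 and 625 (4.10) and Jdp2, an AP-1 family member, 265 and 3347 (4.09, its other probe set 2.08). Nfatc1 read 150 and 1207 (3.44), with 5 probe sets from 1.14 to 3.44. Prdm1, a repressor that acts on anti-osteoclast genes, read 143 and 558 (2.40). Of the partners of NFATc1, Spi1, which encodes PU.1, was nearer the shift at 0.73, as were Mitf at 0.49 and the AP-1 genes Fos at 0.58 and Jun at 0.49. Other members of the AP-1 and MITF families were higher: Fosl2 (2.39, its other probe set 1.18), Tfec (2.01) and Junb (1.33, or 0.89 as deposited). Fosl1 (0.052), Jund (-0.043), Tfe3 (-0.28) and Tfeb (-0.11) lay near the shift. Mef2c read 680 and 86.7 (-2.54), and Mef2a was lower by its brightest probe set (-1.32) with others up to 0.69. Of the genes that hold osteoclast transcription back, 10 of 13 were measured. Among them the median was -1.31, and 6 were 2-fold lower or more (7 as deposited). Higher by 2-fold was 1, and 0 as deposited. The share of all measured genes that were 2-fold lower was 6.99%, or 17.5% as deposited. Id1 read 1770 and 192 (-2.77), Bcl6 828 and 147 (-2.07), Irf8 934 and 177 (-1.97) and Id2 2953 and 741 (-1.56, its probe sets up to -0.63). Klf4, the 1 higher gene, gave 1.03 and its other probe set -0.20.

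The acid that cathepsin K and the phosphatase need comes from genes with a median of 1.45. On both scales 7 of 11 were at least 2-fold higher and 1 lower. Over all measured genes 7.11% were higher and 6.99% lower relative to the shift. Car2 read 23.7 and 2415 (7.10, at least 85.7-fold) and Atp6v0d2, a subunit of the proton pump, 363 and 4068 (3.92). Clcn7, the chloride transporter of the ruffled border, read 381 and 1672 (2.57), and Slc4a2, the anion exchanger that feeds it, 355 and 1130 (2.10). Slc9a7, a sodium-proton exchanger, was the lower one at 290.3 and 44.6 (-2.27). The macrophage signal of Car2 was under the receptor level, so its order against Acp5 and Ctsk is not settled.

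Genes that send lysosomal enzymes to their place and release them were spread around the shift, with a median of -0.0067 over 24 measured of 27. At least 2-fold higher were 5 (4 as deposited) and lower 1 (6 as deposited). Of all measured genes 7.11% were higher and 6.99% lower relative to the shift. As deposited, 409 of the 13647 genes were higher and 17.5% lower. Itgb3, the integrin chain that attaches osteoclasts to bone, read 46.1 and 590.0 (4.11, its other probe set 2.67), Dock5, needed for the actin ring, 142 and 712 (2.76), and Src, the kinase needed for a ruffled border, 78.3 and 341 (2.55). Igf2r, the large mannose 6-phosphate receptor that carries lysosomal enzymes, read 378 and 1130 (2.01). Gnptab, which makes the mannose 6-phosphate mark, also passed 2-fold (800.3 and 1498, 1.34), although not as deposited. M6pr, the small receptor, read 3464 and 3103 (0.27). Sort1, a sorting receptor, was lower at 405 and 98.2 (-1.61).

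Genes for the activation and docking of Mmp9 and for uptake of cut collagen had a median of -0.023 over 17 measured of 18, with 3 at least 2-fold higher (2 as deposited) and 3 lower (6 as deposited). Besides Mmp14 and Itgb3, Lcn2, which binds Mmp9 in neutrophils, was higher at 156 and 300 (1.37; 0.94 as deposited). Plau, the urokinase, was below the floor in osteoclasts, with 98.0 and 14.0 (at least 2.82-fold lower, its other probe set -0.91). Mrc1, a mannose receptor that takes up collagen, read 2504 and 603 (-1.62), and Thbs1 read 3390 and 1163 (-1.11, its other probe set -0.46). Cd44, to which Mmp9 docks, read 3812 and 2778 (-0.023, probe sets -0.27 to 0.45).

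**Figure D4:**
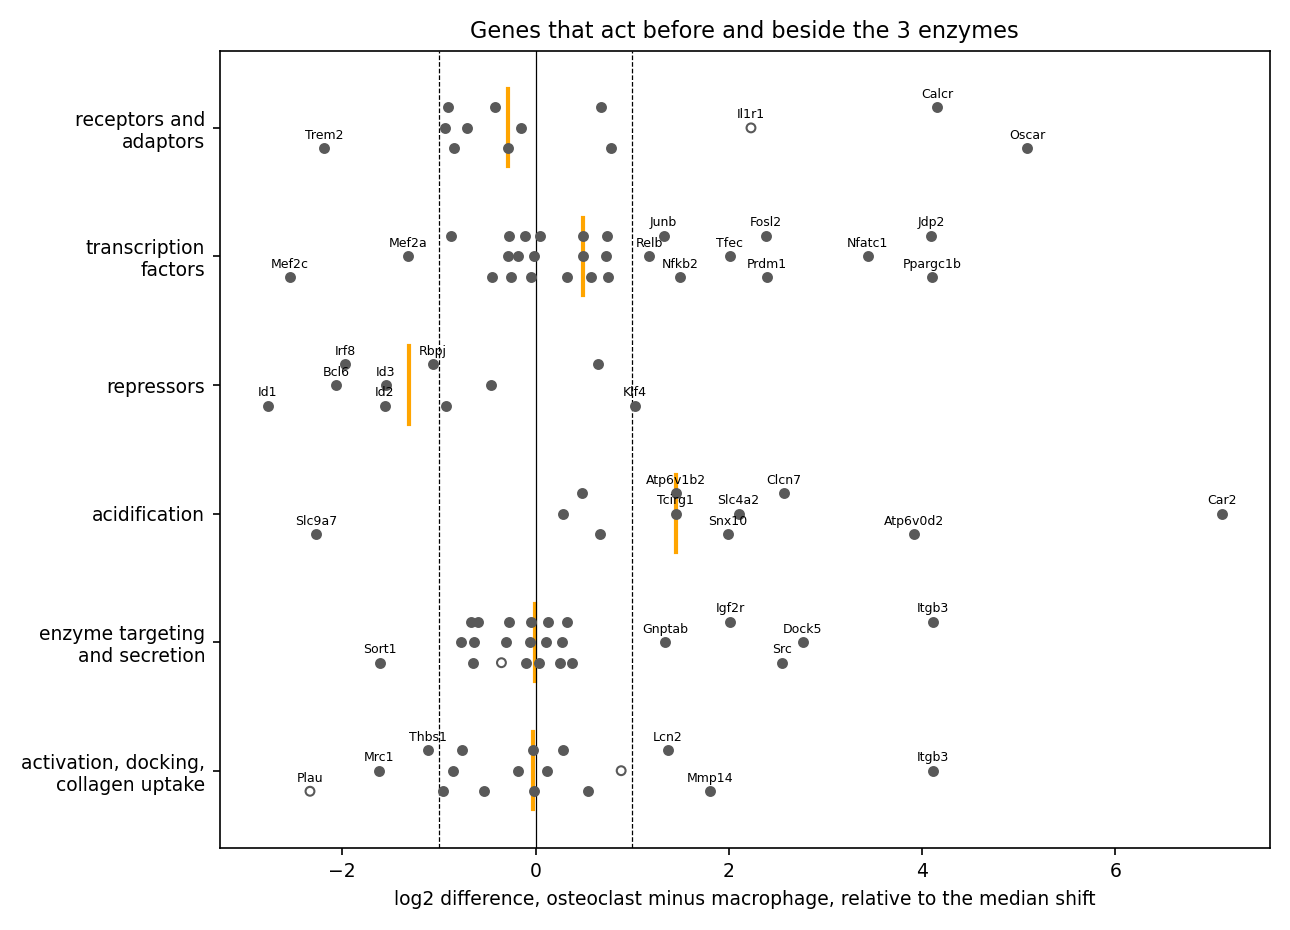
Log2 difference, osteoclast minus macrophage, relative to the median shift, for measured genes of 6 lists around the enzymes; open circles are genes below the floor in 1 array, orange bars the medians, dashed lines 2-fold, and genes past 2-fold are named. Medians run from -1.31 for repressors to 1.45 for acidification, and Car2 at 7.10 is the farthest right.

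The labels were set beside defining markers. These were chosen with earlier results of these data known, and several osteoclast markers also stand in the lists above. The markers are thus no independent check of the labels. All 8 osteoclast markers were at least 2-fold higher in the osteoclast array on both scales, with a median of 4.62, and their summed intensity was 769 in macrophages and 13070 in osteoclasts. Dcstamp and Ocstamp, needed for cell fusion, read 111 and 2813, and 31.2 and 1108. Macrophage markers had a median of -1.30 over 11 measured, 6 of them lower by 2-fold or more (8 as deposited) and none higher, and their summed intensity was 35025 and 16881. Csf1r, the M-CSF receptor, remained bright at 9899 and 6005 (-0.29), as did Cd68 at 7724 and 5850 (0.032), so the osteoclast array kept signal of genes that macrophages and osteoclasts both use.

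Ctsk and Mmp9 are not particular to osteoclasts: fibroblasts and other stromal cells can make Ctsk, and neutrophils store Mmp9. Granulocyte markers were higher in the osteoclast array, 9 of 14 measured by 2-fold or more (5 as deposited), while 2 were lower (3 as deposited). Among all measured genes 7.11% were higher and 6.99% lower relative to the shift, and 17.5% were lower as deposited. The median of the granulocyte markers was 1.34, or 0.91 as deposited. Their summed intensity was 4187 in macrophages and 6793 in osteoclasts, and Cxcr2 was below the floor in both. The defining granule genes Mpo (36.2 and 89.3), Prtn3 (22.2 and 63.5) and Elane (4.24 and 45.6) were dim. Other granule genes were brighter and also had more signal in osteoclasts: Ngp (740 and 1088), Ltf (158 and 290), Camp (96.3 and 187) and Lcn2 (156 and 300). The 2 lower by 2-fold relative to the shift were Fcnb (57.0 and 6.09, at least 1.64-fold) and Csf3r (172 and 52.4). Mmp8 (433 and 276) and Padi4 (125 and 61.3) also had less signal in osteoclasts. S100a8 (1266 and 2133, 1.19) and S100a9 (904 and 2161, 1.69) were bright in both arrays and more than 2-fold higher in osteoclasts relative to the shift. S100a9 also passed 2-fold as deposited (1.26). The part of granulocytes in the Mmp9 signal was not tested. Stromal and osteoblast markers had a median of 0.13 over 11 measured of 14 with a probe set, with 2 higher and 1 lower (1 and 3 as deposited). Relative to the shift 6 of the 11 lay above 0. The summed deposited intensity was 13185 in macrophages and 7756 in osteoclasts, most of it from Col1a2, Sparc and Col1a1, and Lum, Tnfsf11 and Ibsp were below the floor in both arrays. This sum takes 1 probe set per gene, and probe sets of a gene differed. Sparc was at -0.84 with another probe set at 1.23, Pdgfra at 0.57 with another at 2.57 and Col1a1 at -0.16 with another at 0.77. Cxcl12 was at -0.81 with another at -1.53. The part of stromal cells in the Ctsk signal was not tested.

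Other lineages gave low signals for most of their defining genes. The shares to set their counts against were 7.11% higher and 6.99% lower over all measured genes. Dendritic cell markers had 0 of 7 measured at least 2-fold higher and 1 lower, with summed intensities of 422 and 355 and with Ccr7 and Siglech below the floor in both arrays. B cell markers had 0 of 4 higher and 1 lower, with sums of 181 and 92.0 and with Cd79a, Ms4a1 and Vpreb1 below the floor. T and NK cell markers had 1 of 3 higher and 1 lower, with sums of 666 and 278 and with Cd3e, Cd3d, Cd3g, Cd4 and Ncr1 below it. Erythroid markers had 0 of 2 higher and 1 lower (sums 118 and 55.3), mast cell and basophil markers 0 of 3 in either direction (113 and 75.6) and endothelial markers 1 of 3 each way (392 and 180.3). Megakaryocyte markers had 1 of 6 higher and 2 lower, with sums of 8787 and 1910 that were nearly all Pf4 (8488 and 1609), a gene that macrophages also express.

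The order of the 3 enzymes was the same under all 7 alternatives, but only quantile normalization, the pseudocount and the mean over probe sets moved their gaps. Centring and the floors act on the 3 alike, and Acp5 and Ctsk have 1 probe set each, so most alternatives could not change the order. Over 7 alternatives Acp5 lay between 6.29 and 6.74, Ctsk between 6.10 and 6.56 and Mmp9 between 7.92 and 8.82. The lowest Mmp9 value came from a pseudocount of 16 added to each intensity, which draws a dim macrophage signal up.

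**Figure D5:**
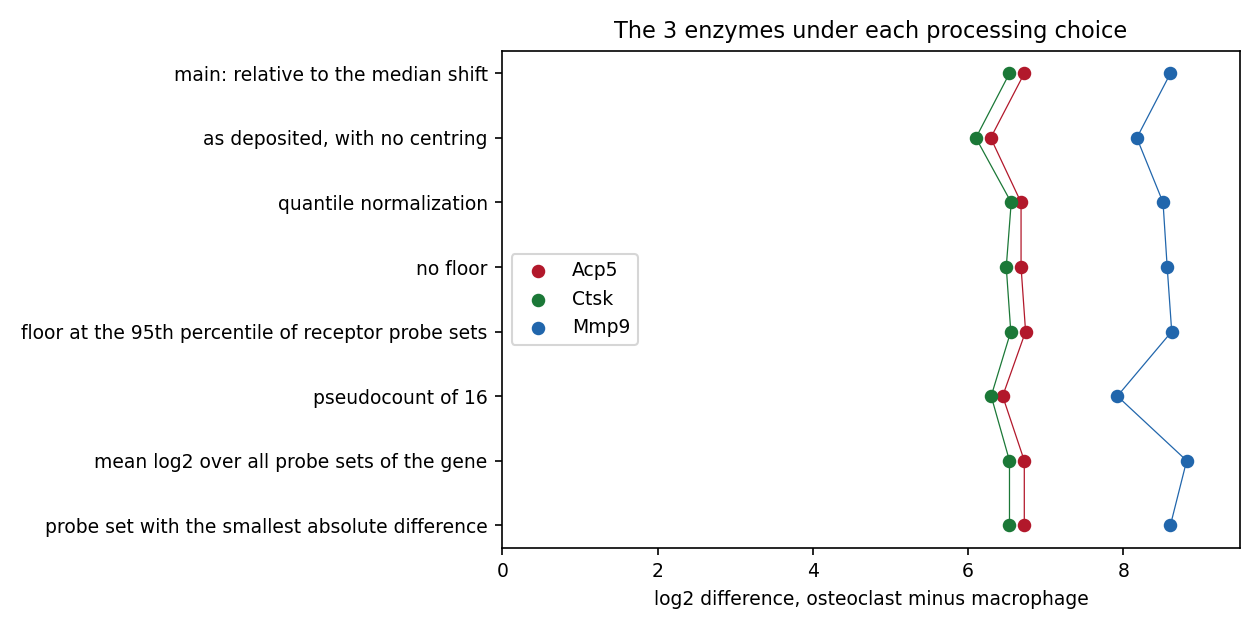
Log2 difference, osteoclast minus macrophage, of Acp5, Ctsk and Mmp9 (horizontal axis, starting at 0) under the main choice and 7 alternatives (vertical axis). Ctsk and Acp5 run close together between 6.10 and 6.74, and Mmp9 lies apart between 7.92 and 8.82.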

How the data were processed

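Per the labels' protocols, total RNA (1 µg per sample) was labelled with biotin as cRNA by a one-cycle protocol and hybridised to 1 Affymetrix array per group. The authors deposited intensity values on a linear scale for 45101 probe sets per array. How probes were condensed, background-corrected and scaled was not given in the sources used here; no detection call came with the values. The 64 control probe sets were left out. A gene's value is that of its brightest probe set by mean log2 over both arrays, and members are given by all of theirs. Differences are log2 osteoclast minus macrophage, less the median difference of probe sets above the floor in both arrays. "At least" folds set the dimmer signal to no less than the 95th percentile of receptor probe sets and take the smaller of the values as deposited and relative to the shift. A single array per group allows no test, and precision is limited by the number of arrays.

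The members, gene lists and rules were chosen with earlier results of these data known. Named are the members, the 3 genes nearest to each in difference, up to 4 list genes per direction past 2-fold or up to 3 of the brightest otherwise, and any gene of the enzyme families and inhibitors; other genes of the lists named with their values were chosen after those were seen. The platform annotation can be old and names no build, so no gene coordinates are given. Alternatives changed the centring, floor, pseudocount and choice of probe set. Calculations used Python 3.11.15, numpy 2.4.6 and pandas 2.3.3, and the script was tested on simulated data.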

Additional observations from a re-analysis of the deposited data

How the results depend on the processing

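Acp5 and Ctsk moved by less than the SD between probe sets under all 7 alternatives, and Mmp9 under 6 of them. A pseudocount of 16 brought Mmp9 to 7.92. For Acp5 and Ctsk most of these outcomes were fixed in advance and are no sign of stability. Each has 1 probe set, above every floor used. Only quantile normalization and the pseudocount could thus move it other than through the shift. Counts over all genes depended on the processing. Genes at least 2-fold higher numbered 970, but 409 as deposited, 2644 with no floor and 595 with the pseudocount. Genes at least 2-fold lower numbered 954, but 2390 as deposited and 2719 with no floor. Genes at least 4-fold higher numbered 183, but 108 as deposited, 1061 with no floor and 111 with the pseudocount. Without a floor all 18193 genes were counted, most of the added ones near background. With no floor the ranks of Mmp9, Acp5 and Ctsk were 3, 7 and 9. Of 176 list counts under 4 alternatives, 127 stayed within 1.5 times and 49 did not. No paired analysis was possible because each group is 1 array. Signals near background limit Mmp9 in macrophages, and nearness to the top of the range may limit all 3 enzymes in osteoclasts, which was not tested.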
